A study of Astyanax mexicanus with 6 samples.

Results

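Collagens and laminins are the structural proteins of connective tissue and of basement membranes, and the genes described here are those whose name starts with col or with lama, lamb or lamc followed by a digit. The rule found 61 genes of the 25271 in the counts. Of these, 47 encode collagen chains, 12 encode laminin chains, and 2 (col4a3bpa and col4a3bpb) match by spelling only, since they encode ceramide transfer proteins, and are given apart. The collagens comprise 12 fibrillar chains, 10 FACIT chains (collagens with interrupted helices that sit on fibrils), 6 chains of type IV, 4 of type VI and 15 others. The laminins comprise 5 alpha, 5 beta and 2 gamma chains. All 61 passed edgeR's filter on low counts. The counts list col10a1a (ENSAMXG00000020866) and col10a1b (ENSAMXG00000003922) under the names of the 2 col1a1 copies, because names in that table have lost the digit 0, so names here follow the methylation table by gene ID.

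Both classes of protein work as trimers. A fibrillar collagen is a rod of 3 chains that packs into fibrils in cornea, sclera, skin and cartilage, a type IV collagen forms the network of basement membranes, and a laminin joins 1 alpha, 1 beta and 1 gamma chain into a cross that lies beside that network. In the eye they build the lens capsule, the inner limiting membrane of the retina, Bruch's membrane, the vessels and the corneal stroma. In zebrafish, loss of lama1 disturbs lens and anterior segment development.

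At roughly 54 hours post-fertilization, eyes were taken from wild-type Astyanax mexicanus, a fish with an eyed surface morph and a cave morph whose eyes form and then degenerate. Each morph has 2 libraries of poly(A) RNA and 1 of bisulfite-treated genomic DNA. The labels leave unsaid whether the pair of RNA libraries from each morph had separate sources. Their p-values may thus reflect technical spread alone. Both morphs were dissected at the same stage, without any further treatment given in the labels.

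The RNA libraries held between 117742250 and 154476181 counts. Counts of the rod opsin gene rho were 17664 and 26989 in the libraries labelled cave, and 0 and 7 in those labelled surface. The photoreceptors of the cave morph are known to degenerate, so that direction would also arise if the RNA labels were exchanged, which was not tested, and the libraries are called labelled cave and labelled surface for that reason. Cave replicate 2 stood apart from the other 3 libraries, and each result is therefore given for cave replicate 1 and cave replicate 2 apart. Levels are CPM, the usual counts scaled to library size, with edgeR's TMM factors. They are not per length and serve to compare libraries, not genes.

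Collagen RNA was scarce in cave replicate 2 and close to the surface level in cave replicate 1. The 61 genes took 0.709% of all counts in cave replicate 1 and 0.141% in cave replicate 2, against 0.647% and 0.672% in the libraries labelled surface. On the log2 scale, cave replicate 1 had a median difference from the surface mean of 0.33 and cave replicate 2 one of -1.68, beside 0.08 and -0.02 over all 22850 genes tested. In cave replicate 2, 37 of the 61 were at least 2-fold below the surface mean, where 22.2% of all genes were. In cave replicate 1, 4 were at least 2-fold below it and 10 at least 2-fold above it, beside 8.27% and 15.0% of all genes. Between the surface libraries 2 of the 61 were at least 2-fold apart, beside 7.84% of all genes.

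Set directly against each other, the cave libraries differed for most of the genes. Cave replicate 1 was at least 2-fold above cave replicate 2 for 47 of 61 genes, where 21.6% of all genes were, and at least 2-fold below it for 1 gene, where 4.53% were. That 1 gene is col10a1b, named after its value was seen. The low values of cave replicate 2 were mostly those of collagens. At least 2-fold lower than the surface mean were 36 of 47 collagen chains, with a median of -1.96, and 1 of 12 laminin chains (lamb4), with a median of -0.54. Of all genes 22.2% were that low, with a median of -0.02. No test was made of that contrast between the families. In tissue taken whole, fewer cells of a type and less RNA per cell cannot be told apart.

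**Figure D1:**
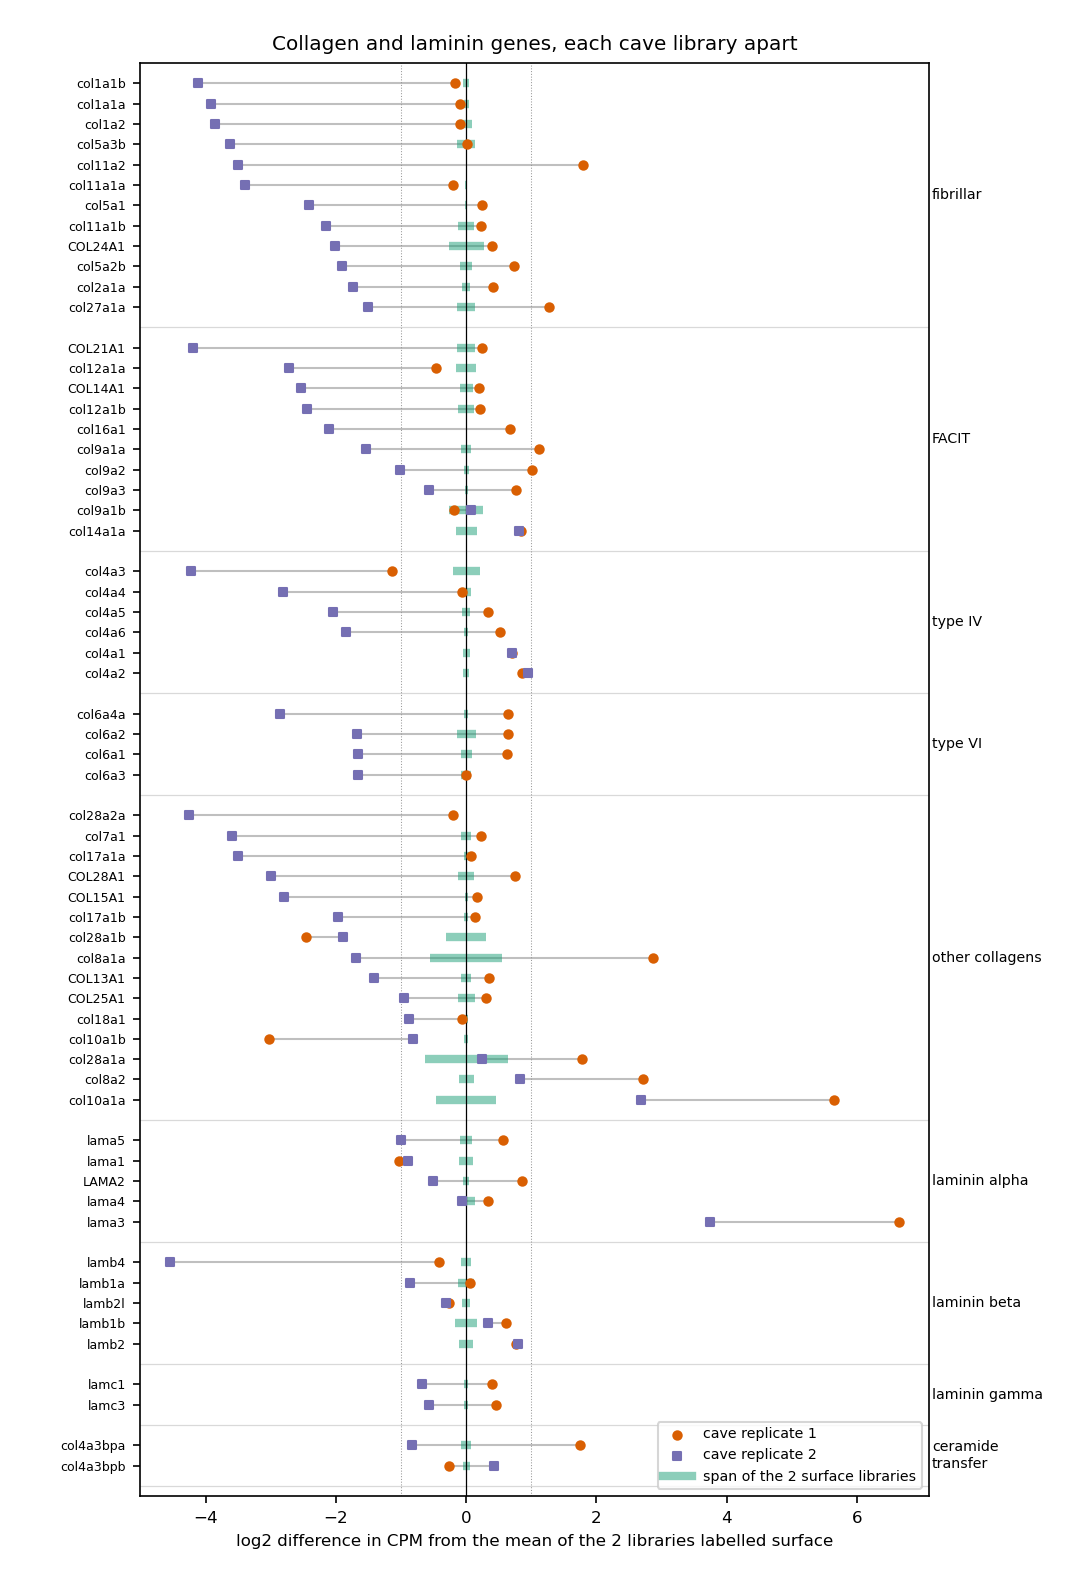
Log2 difference in CPM from the surface mean for the 61 genes, ordered within each class by cave replicate 2 (squares); circles are cave replicate 1 and the green bar spans the 2 surface libraries. All 12 fibrillar chains lie left of -1 in cave replicate 2, while col4a1, col4a2, lama1 and lamb2 have nearly the same value in both cave libraries.

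**Figure D2:**
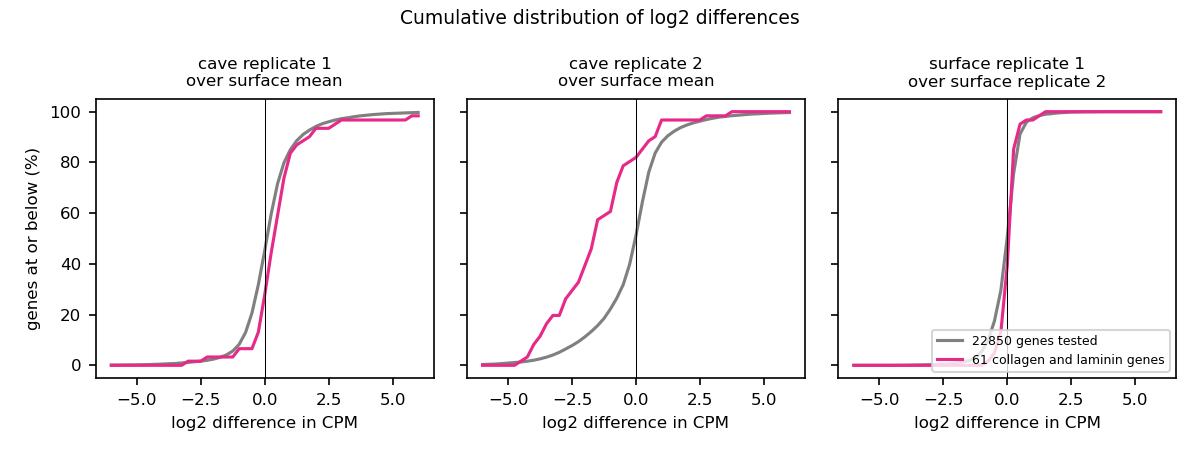
Cumulative share of genes (%) at or below each log2 difference in CPM, for the 61 collagen and laminin genes (pink) and all 22850 genes tested (grey). In the middle panel, cave replicate 2, the pink curve lies to the left of the grey one, with medians of -1.68 and -0.02.

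With all 4 libraries, edgeR's quasi-likelihood test with Benjamini-Hochberg adjustment called 0 of the 61 higher and 0 lower at an adjusted p under 0.05, where 2.77% and 0.407% of all genes were called. At an unadjusted p under 0.05 it held 8 of them, beside 18.3% of all genes. DESeq2 called 4 higher (lama3, col10a1a, col8a2 and col4a2) and 2 lower (lama1 and col28a1b), beside 7.00% and 3.27% of all genes. The authors' deposited table lists those 6 genes, and no other of the 61, at an adjusted p under 0.05, with its sign running opposite to cave minus surface. The test compares a group whose libraries lie far apart, and 1 library decides its counts. Without cave replicate 1, edgeR called 6 higher and 41 lower, where 12.9% and 18.1% of all genes were called. Without cave replicate 2 it called 12 higher and 4 lower, where 11.2% and 8.37% were. In such a fit a group holds 1 library, which is assumed to vary like the other pair. Both cave libraries lay above both surface libraries for 8 genes and below both for 13, beside 28.5% and 24.2% of all genes. Those shares for the 61 genes, 13.1% and 21.3%, are below the ones over all genes. A gene described below as without overlap thus has a trait that is common among all genes.

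The fibrillar chains were lower in cave replicate 2 without exception, by log2 values between -1.51 and -4.12 with a median of -2.91. In cave replicate 1 the same 12 lay between -0.21 and 1.80. The 3 chains of type I collagen, the main collagen of skin, cornea and sclera, differed as a unit. Type I chain gene col1a1a (ENSAMXG00000015724, scaffold KB871704.1, 225606 to 248570, plus strand) stood at 1116 and 79.1 CPM in the cave libraries and at 1225 and 1162 CPM in the surface libraries. Cave replicate 2 was the single low library. Its log2 fold change over all 4 libraries was -1.0 (SE 1.05; edgeR, Benjamini-Hochberg adjusted p = 0.681). The copy col1a1b read 757 and 49.0 CPM against 881 and 824 CPM, and their partner col1a2 read 877 and 64.9 CPM against 992 and 880 CPM. From one library to another the log2 ratio of col1a1a to col1a2 varied by 0.12 in all, so the chains of this trimer kept nearly the same proportion while their log2 difference in cave replicate 2 was -3.92 and -3.85.

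The chains that start and limit fibril growth were all lower in cave replicate 2, by amounts that varied from chain to chain. Type V chains, which nucleate type I fibrils, stood in cave replicate 2 at -2.41 (col5a1), -3.62 (col5a3b) and -1.91 (col5a2b). Type II chain gene col2a1a, of cartilage, notochord and vitreous, read 790 and 178 CPM in the cave libraries against 620 and 568 CPM. For its type XI partner col11a2 the cave libraries read 164 and 4.16 CPM against 47.4 and 47.1 CPM, so cave replicate 1 was above and cave replicate 2 below the surface pair (log2 1.80 and -3.50). The copies of the type XI alpha 1 chain, col11a1a and col11a1b, stood at -0.21 and 0.23 in cave replicate 1, and at -3.40 and -2.15 in cave replicate 2.

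Among the FACIT chains 7 of 10 were at least 2-fold lower in cave replicate 2, beside 22.2% of all genes, with a median of -1.82. Types XII and XIV coat type I fibrils. For col12a1a, which showed no overlap between the groups, the cave libraries read 85.3 and 17.9 CPM against 131 and 107 CPM (log2 fold change -1.20, SE 0.69; edgeR, Benjamini-Hochberg adjusted p = 0.425). Its copy col12a1b read 61.6 and 9.79 CPM against 57.8 and 48.8 CPM. For COL21A1 cave replicate 2 stood at 0.267 CPM against 6.09 CPM in cave replicate 1 and 5.62 and 4.66 CPM in the surface libraries. An exception was col14a1a, at 4.1 and 4.0 CPM against 2.04 and 2.55 CPM, with both cave libraries above both surface libraries (log2 fold change 0.82, SE 0.42; edgeR, Benjamini-Hochberg adjusted p = 0.372). The other type XIV gene, COL14A1, named after its values were seen, was not an exception. It read 28.5 and 4.26 CPM against 23.2 and 26.6 CPM (log2 -2.54 in cave replicate 2).

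Type IX collagen, which sits on type II fibrils in cartilage and vitreous, showed chains that parted from each other. In cave replicate 1 the log2 difference from the surface mean was 1.12 for col9a1a, 1.01 for col9a2 and 0.76 for col9a3, and in cave replicate 2 it was -1.54, -1.02 and -0.57. The second copy of the alpha 1 chain did not follow. For col9a1b the cave libraries read 50.6 and 60.6 CPM against 69.2 and 47.8 CPM, so all 4 libraries overlapped. The log2 ratio of col9a1a to col9a1b was 1.90 in the first cave library and -1.02 in the second, against 0.25 and 0.94 in the surface libraries.

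Type VI collagen, which forms beaded filaments around cells, was lower in cave replicate 2. In cave replicate 2 col6a1, col6a2 and col6a3, whose chains make up the classic trimer, stood at -1.66, -1.68 and -1.66, and col6a4a at -2.85. The log2 ratio of col6a1 to col6a2 varied by 0.12 over the 4 libraries and that of col6a3 to col6a2 by 0.72, with cave replicate 1 lowest in the second. In cave replicate 1 the values were 0.63, 0.64, -0.01 and 0.64 in that order. The gene col6a4a overlaps pik3r4 on the other strand.

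Among the other collagens, those that anchor the epidermis were low in cave replicate 2. Both col17a1 copies encode a hemidesmosome collagen, and col17a1a read 186 and 15.5 CPM against 181 and 171 CPM, while col17a1b read 14.1 and 3.28 CPM against 12.5 and 13.1 CPM. For col7a1, the anchoring fibril gene, the log2 difference was -3.59 in cave replicate 2 against 0.22 in cave replicate 1. A type XXVIII gene, col28a2a, read 104 and 6.28 CPM against 119 and 121 CPM. Basement membrane zone collagens varied in size of difference. The endostatin precursor gene col18a1 read 196 and 112 CPM against 210 and 201 CPM, with both cave libraries below both surface libraries (log2 fold change -0.42, SE 0.30; edgeR, Benjamini-Hochberg adjusted p = 0.530), and COL15A1 stood at 0.17 and -2.80.

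A few of the other collagens differed from the surface libraries in both cave libraries. They lie outside the rule for named genes and are named because DESeq2 called them. Short-chain collagen gene col8a2, of the inner corneal (Descemet's) membrane, read 54.6 and 14.8 CPM against 9.02 and 7.71 CPM (log2 fold change 2.05, SE 0.62; edgeR, Benjamini-Hochberg adjusted p = 0.169; DESeq2, adjusted p = 0.0140). Type X collagen gene col10a1a, a marker of hypertrophic cartilage, read 8.69 and 1.1 CPM against 0.112 and 0.227 CPM (log2 4.84, SE 1.15; adjusted p = 0.107 by edgeR and 3.46e-05 by DESeq2). Its copy col10a1b, named after its values were seen, was lower in both cave libraries, at 0.198 and 0.961 CPM against 1.66 and 1.74 CPM (log2 -1.56, SE 0.84; adjusted p = 0.402 by edgeR and 0.377 by DESeq2). Over its whole length, 6604 bases, col10a1b is overlapped by nt5dc1 on the other strand, which had 2993 to 7841 counts. The handling of strand is not given, and what the overlap does to the counts of col10a1b was not tested. The level of col28a1b was lower in both cave libraries, at 0.456 and 0.685 CPM against 2.08 and 3.19 CPM (log2 -2.21, SE 0.56; adjusted p = 0.122 by edgeR and 0.00526 by DESeq2). For col10a1a and col8a2 the cave libraries themselves differed by more than 3-fold, and for col28a1b by less than the surface pair did.

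Type IV collagen split into pairs. Its 6 genes lie as 3 pairs, each on a scaffold of its own with the genes pointing away from each other and no listed gene between them. The pair col4a2 (scaffold KB871578.1, 8604898 to 8705428) and col4a1 (8739095 to 8778095) encodes the chains of the network found in nearly all basement membranes, the lens capsule and vessels included. Both were higher in both cave libraries and nearly equal between them. For col4a1 the cave libraries read 88.2 and 88.6 CPM against 56.1 and 52.0 CPM (log2 fold change 0.71, SE 0.18; edgeR, Benjamini-Hochberg adjusted p = 0.126; DESeq2, adjusted p = 0.0812). For col4a2 they read 38.8 and 41.4 CPM against 20.8 and 22.1 CPM (log2 fold change 0.90, SE 0.21; adjusted p = 0.0998 by edgeR and 0.0212 by DESeq2). In neither did the groups overlap, and the same held, with cave higher, for 28.5% of all genes.

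The other pairs followed the fibrillar chains in cave replicate 2. The second pair, col4a5 (scaffold KB872818.1, 980477 to 1010388) and col4a6 (1125076 to 1162777), encodes chains of specialised membranes. In cave replicate 1 it stood at 292 and 301 CPM and in cave replicate 2 at 55.9 and 58.1 CPM, against 242 and 223 CPM for col4a5 and 214 and 204 CPM for col4a6. The gene col4a3 (scaffold KB871758.1, 305886 to 409603), whose human form is altered in Alport syndrome, was lower in both cave libraries, at 15.5 and 1.81 CPM against 39.2 and 29.5 CPM (log2 fold change -1.99, SE 0.92; edgeR, Benjamini-Hochberg adjusted p = 0.334). Its neighbour col4a4 read 4.83 and 0.703 CPM against 5.27 and 4.78 CPM. The log2 ratio within a pair varied over the libraries by 0.33 for col4a1 to col4a2, by 0.23 for col4a5 to col4a6 and by 1.55 for col4a3 to col4a4.

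Laminin alpha chains, which bind the cell surface, differed from chain to chain. The gene lama1 (ENSAMXG00000018112, scaffold KB871690.1, 404071 to 469547, plus strand), the main alpha chain of early eye membranes, was lower in both cave libraries. It read 38.7 and 42.4 CPM in the libraries labelled cave and 85.2 and 73.4 CPM in those labelled surface. The gap between the groups was larger than the difference within either of them. Its log2 fold change was -0.97 (SE 0.20; edgeR, Benjamini-Hochberg adjusted p = 0.0757), and DESeq2 gave an adjusted p of 0.00839. The vessel laminin gene lama4 read 64.2 and 49.2 CPM against 56.2 and 46.6 CPM and overlapped. For lama5, broadly used in epithelia, cave replicate 2 stood at 17.4 CPM against 51.6 CPM in cave replicate 1 and 32.6 and 37.0 CPM in the surface pair. It overlaps adrm1 on the other strand and an unnamed gene on its own strand. LAMA2, the muscle and nerve laminin gene, read 29.7 and 11.6 CPM against 17.0 and 16 CPM.

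The gene lama3, whose mammalian protein belongs to the laminin that anchors the epidermis, had 189 and 20 counts in the cave libraries and 0 in both surface libraries. Against a floor of 6 counts over the surface group its level in the cave pair was at least 41.9-fold higher, and cave replicate 1 decides that bound. With the same floor it was at least 71.5-fold higher in cave replicate 1 and at least 8.53-fold higher in cave replicate 2. These bounds are scaled to total counts, without the TMM factors used for CPM. The Benjamini-Hochberg adjusted p was 0.105 by edgeR and 0.000320 by DESeq2. This gene was named after DESeq2 called it, and it overlaps a gene listed as cts12 over 6953 bases on the same strand, so reads in that stretch may not have been assigned to it.

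Among the beta chains, neighbouring genes parted. The gene lamb4 (scaffold KB882100.1, 2129801 to 2162461) lies 3046 bases from lamb1a (2165508 to 2229206) on the same strand. It read 43.4 and 2.45 CPM in the cave libraries against 60.9 and 54.5 CPM, the lowest of the 61 genes in cave replicate 2 at log2 -4.55. Its neighbour lamb1a, whose zebrafish form is needed for the notochord sheath, read 122 and 64.4 CPM against 128 and 107 CPM. The log2 ratio of lamb4 to lamb1a was -4.71 in cave replicate 2 and between -1.49 and -0.97 in the other 3 libraries. The copy lamb1b read 5.85 and 4.83 CPM against 3.40 and 4.30 CPM.

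The next pair of neighbours, lamb2l and lamb2, lies 2597 bases apart on the same strand and shifted in proportion by nearly the same amount in both cave libraries. The gene lamb2, a laminin chain of muscle synapses and retina in mammals, read 28.2 and 28.8 CPM against 17.8 and 15.4 CPM (log2 fold change 0.78, SE 0.23; edgeR, Benjamini-Hochberg adjusted p = 0.162; DESeq2, adjusted p = 0.0850). In contrast lamb2l read 35.9 and 35.0 CPM against 45.3 and 41.5 CPM (log2 fold change -0.29, SE 0.20; adjusted p = 0.503 by edgeR). Neither gene overlapped between the groups, a trait of 28.5% (cave higher) and 24.2% (cave lower) of all genes. The log2 ratio of lamb2 to lamb2l stood above its surface mean by 1.04 in cave replicate 1 and by 1.11 in cave replicate 2, a shift that was not tested.

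Gamma chains, of which a trimer needs 1, followed the median of the laminins. The most widely used chain gene, lamc1, read 12.7 and 6.05 CPM against 9.96 and 9.46 CPM, and lamc3 read 20.6 and 10.2 CPM against 14.8 and 15.4 CPM. For both, cave replicate 1 lay above and cave replicate 2 below the surface pair. The ceramide transfer protein genes also differed between the cave libraries, in opposite directions. For col4a3bpa they read 52.6 and 8.84 CPM against 16.6 and 14.9 CPM, and for col4a3bpb 38.0 and 61.7 CPM against 47.7 and 44.3 CPM.

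**Figure D3:**
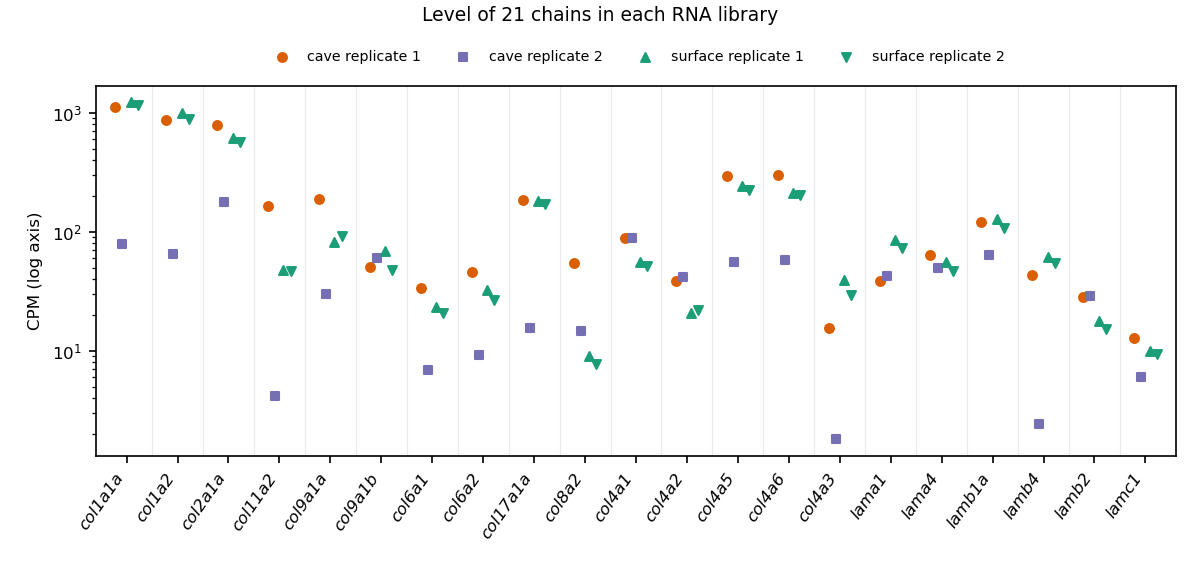
CPM (log axis) of 21 chains in each RNA library; levels are not per length, so points are compared within a gene. The squares of cave replicate 2 lie far below the other libraries for col1a1a, col1a2, col11a2, col17a1a, col4a3 and lamb4, and beside cave replicate 1 for col9a1b, col4a1, col4a2, lama1, lama4 and lamb2.

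Genes that fold, trim, bind and degrade these proteins were described by 6 lists. EdgeR with Benjamini-Hochberg adjustment called 0 of their 115 genes, where 2.77% of all genes were called higher and 0.407% lower. At an unadjusted p under 0.05 it held 18, or 15.7%, beside 18.3% of all genes, and DESeq2 called 4.35% higher and 3.48% lower, beside 7.00% and 3.27%. Each of the 6 lists had a lower median in cave replicate 2 than in cave replicate 1. For collagen folding and hydroxylation (21 genes tested) the medians over the surface mean were 0.40 in cave replicate 1 and -0.71 in cave replicate 2, and 7 genes were at least 2-fold lower in cave replicate 2. The prolyl isomerase gene ppib stood at 0.56 and 0.10 in the cave libraries, and p4hb, a subunit of prolyl hydroxylase, at -0.44 and -1.01. For trimming and crosslinking (16 genes) the medians were 0.55 and -0.77, with bmp1a, which cuts the procollagen tail, at -0.81 and -0.65 and its enhancer gene pcolcea at -0.39 and -1.70. For small proteoglycans and fibril partners (21 genes) they were 0.72 and -1.37, with sparc, a collagen-binding protein gene, at 0.42 and -1.60 and postnb, a periostin gene, at 0.58 and -3.19.

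Basement membrane partners (22 genes) had medians of 0.16 and -0.83, with nid1b, which links laminin to type IV collagen, at -0.41 and -0.78. Among the receptors (22 genes, medians 0.31 and -0.86) dag1, the laminin receptor gene dystroglycan, read 45.3 and 42.0 CPM against 83.3 and 79.7 CPM. This is a log2 fold change of -0.90 (edgeR, Benjamini-Hochberg adjusted p = 0.0774; DESeq2, adjusted p = 0.00590). A second copy, listed as DAG1, read 21.3 and 31.1 CPM against 26.1 and 34.7 CPM and overlapped (log2 fold change -0.21; edgeR, Benjamini-Hochberg adjusted p = 0.758). The syndecan gene sdc2 stood at 0.44 and 0.18, and a second copy, listed as SDC2, at 1.19 and -1.59. Metalloproteinases and their inhibitors (14 genes) had medians of 0.13 and -0.75, with mmp2 at -0.07 and -2.12 and reck at -0.04 and -0.92.

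Summed levels of markers of tissues around the eye were, like those of most collagens, lowest in cave replicate 2, though not for every marker. None of these marker lists holds a collagen or a laminin, but they are not separate from the partner lists. The mesenchyme markers dcn, lum, fmoda and fn1b are also among the small proteoglycans and fibril partners. So are the cartilage markers matn1 and matn3a. In cave replicate 1 the largest cartilage markers were hapln1a (282 CPM) and matn1 (131 CPM). The 14 markers of epidermis and cornea summed to 11429 and 1298 CPM in the cave libraries and to 9484 and 10510 CPM in the surface libraries, and all 14 were at least 2-fold lower in cave replicate 2. The 8 cartilage markers summed to 523 and 46.8 CPM against 180 and 214 CPM, with 6 at least 2-fold lower in cave replicate 2 and 6 at least 2-fold higher in cave replicate 1. The 17 markers of periocular and head mesenchyme summed to 872 and 500 CPM against 743 and 654 CPM, with 9 at least 2-fold lower in cave replicate 2. Others of them stood above the surface mean there, such as tfap2a (log2 0.93) and fn1b (0.52). Within the mesenchyme sums tfap2a alone read 198 and 266 CPM in the cave libraries against 150 and 130 CPM. The median log2 difference of the 17 in cave replicate 2 was -1.25. Skeletal muscle markers (9 genes) summed to 696 and 83.0 CPM against 231 and 220 CPM, and forebrain markers (10 genes) to 149 and 54.9 CPM against 302 and 478 CPM. In cave replicate 2, 5 of the muscle and 9 of the forebrain markers were at least 2-fold lower, while the muscle marker tnnt3a stood at 0.86. In cave replicate 1, 7 of the muscle markers were at least 2-fold higher and 6 of the forebrain markers at least 2-fold lower. Of all genes, 22.2% were at least 2-fold lower in cave replicate 2. In cave replicate 1, 15.0% of all genes were at least 2-fold higher and 8.27% at least 2-fold lower. None of these markers was at 0 counts in any library.

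The summed levels of retina, lens and vessel markers were not lower in cave replicate 2, although the lens marker FOXE3 (-1.64) and the vessel marker sox7 (-1.12) were each over 2-fold lower there. The 14 retina markers summed to 2660 and 4693 CPM against 951 and 683 CPM, with rho at 0 in surface replicate 1. The 12 lens markers summed to 425 and 481 CPM against 106 and 67.4 CPM, with cryabb and crygmx at 0 in at least 1 library. The 11 markers of vascular endothelium summed to 134 and 147 CPM against 133 and 117 CPM, and the 6 of zonule and vitreous matrix to 121 and 73.4 CPM against 141 and 122 CPM. What part these tissues have in the collagen and laminin values was not tested.

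**Figure D4:**
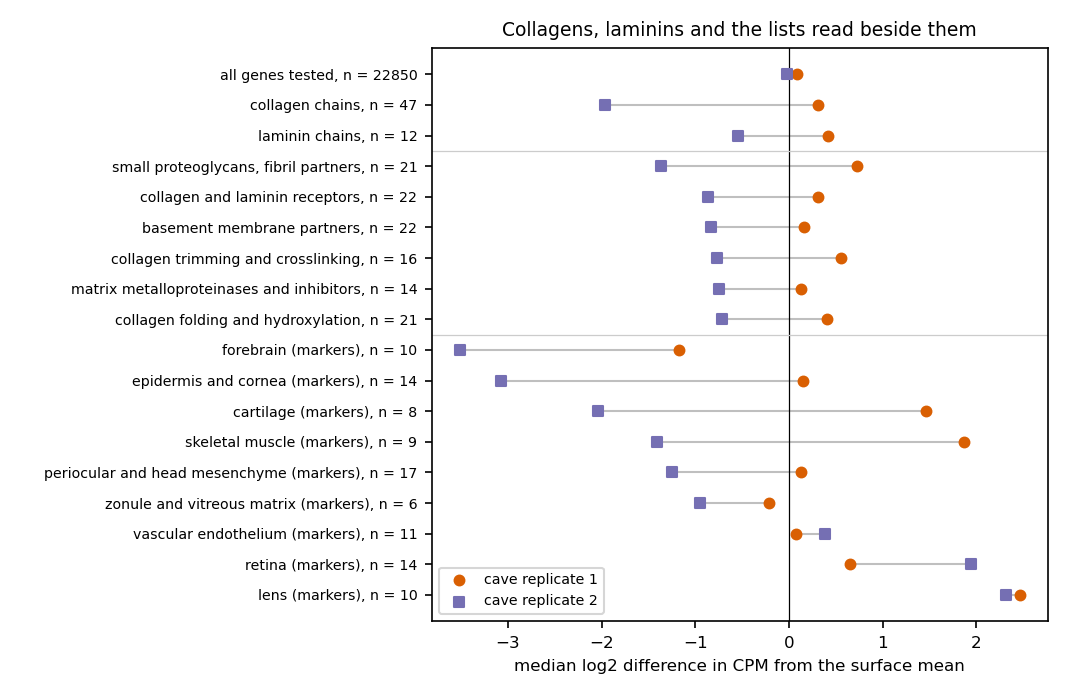
Median log2 difference in CPM from the surface mean in cave replicate 1 (circles) and cave replicate 2 (squares) for all genes, the collagen and laminin chains, 6 lists of partner genes and 9 marker lists, with the number of genes tested. In cave replicate 2, collagen chains lie at -1.96. Markers of forebrain (-3.51), epidermis and cornea (-3.07) and cartilage (-2.04) are lower there, and those of muscle (-1.41) and mesenchyme (-1.25) higher. Lens and retina markers lie at 2.32 and 1.94. In cave replicate 1, collagen chains lie at 0.31, epidermis and cornea at 0.15, mesenchyme at 0.13 and cartilage at 1.46, beside 0.08 for all genes. Some genes are in both a partner list and a marker list.

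DNA methylation was compared next, since the title of the series names an epigenetic route. Each gene has a count of methylated and unmethylated calls in its body and in an upstream region of unstated width. With 1 library per morph the tests compare those 2 libraries, not the morphs. The cave call totals tested for these genes were all even, upstream and in bodies, while the surface totals were odd or even. Counting each cave call 2 times would give that, which was not tested. The cave calls and intervals printed below are as deposited, and may overstate the depth of the cave library. Whether the bisulfite libraries share eyes with an RNA library is not stated. Upstream regions with at least 20 calls in each library were available for 59 of the 61 genes, all except col11a1b and col6a3. Their median methylation was 79.5% (cave) and 77.0% (surface), against 72.7% and 70.5% over all genes. It was above 70% in both libraries for 36 of the 59, a share not counted over all genes. It was below 20% in both for 6 of the 59, or 10.2%, against 23.1% of all genes. Such low regions lay before col1a1a (0.968% and 0.467%), lamc1 (9.73% and 3.74%), col2a1a (7.28% and 5.27%), col11a2 (14.6% and 12.1%), COL15A1 (15.3% and 5.60%) and col12a1b (17.0% and 13%). Type I partners differed in this, since the region before col1a2 was methylated at 93.5% and 95.7% and that before col1a1b at 61.0% and 55.9%.

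Of the 59 upstream regions, 5 were called higher and 6 lower in the cave library (Fisher's exact test, Benjamini-Hochberg adjusted, and a difference of at least 10 percentage points), beside 12.1% and 8.67% of all genes. These shares, 8.47% and 10.2%, are near those of all genes. The largest rise was before lama4 (scaffold KB882283.1, 1185315 to 1234040, minus strand), at 79.3% of 512 calls in the cave library (95% exact interval 75.5 to 82.7) against 42.6% of 378 calls (37.6 to 47.8). Next came col28a1a, at 38.9% of 638 calls against 16.6% of 536 calls. The others called higher were col9a3 (30.9% against 16.2%), col14a1a (89.5% against 77.0%) and col4a2 (63.3% against 51.1%). Their RNA did not go one way, with lama4, col28a1a and col9a3 overlapping between the groups and col14a1a and col4a2 higher in both cave RNA libraries.

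The largest fall was before col12a1a (scaffold KB882179.1, 1258531 to 1333956, plus strand), at 15.5% of 828 calls (13.1 to 18.1) against 47.4% of 804 calls (43.9 to 50.9). Upstream of lama1 the level was 20.9% of 1138 calls (18.6 to 23.4) in the cave library against 41.6% of 1153 calls (38.8 to 44.5). The others called lower were col4a5 (44.4% against 62.6%), col9a2 (60.0% against 76.7%), col9a1b (77.3% against 93.8%) and LAMA2 (77.9% against 90.1%). For col12a1a and lama1 the RNA was lower in both libraries labelled cave, and neither RNA difference was called by edgeR. For col4a5, col9a2, col9a1b and LAMA2 the RNA groups overlapped, with log2 fold changes of -0.42, 0.33, -0.07 and 0.32. Were the RNA labels exchanged, the RNA directions given here and for col14a1a and col4a2 would turn. Within the gene pair col4a2 and col4a1 the partner col4a1 stood at 87.7% against 82.5% and was not called, and col4a6, the partner of col4a5, stood at 63.5% against 66.1%.

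Gene bodies were uniformly methylated. All 61 were above 70% in both libraries, between 70.2% and 92.3%, with medians of 86.4% (cave) and 85.4% (surface). Over all gene bodies the medians were 83.4% and 82.1%, while the share above 70% was not counted. By Fisher's exact test, Benjamini-Hochberg adjusted and the same difference of 10 points, 0 were called higher and 0 lower, beside 3.15% and 1.99% of all genes. At any size of difference, 51 of the 61 had an unadjusted p under 0.05, beside 72.0% of all gene bodies. The differences ran from -5.84 points (col6a4a) to 5.44 points (col8a1a), named for being the extremes. Bodies of these genes held many calls, at least 3622 in each library.

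**Figure D5:**
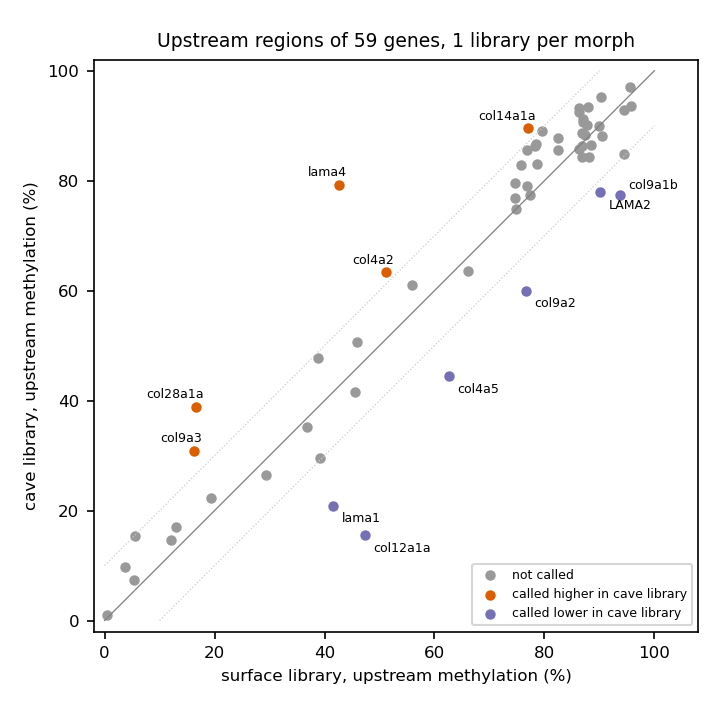
Upstream methylation (%) of 59 genes in the cave library against the surface library, 1 library each; dotted lines mark a difference of 10 points. The 5 regions called higher (orange) and 6 called lower (purple) are named, with lama4 and col12a1a farthest from the diagonal.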

How the data were processed

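Poly(A) RNA libraries (2 per morph) and bisulfite libraries (1 per morph) of eyes were compared. Raw gene counts, and counts of methylated and of unmethylated cytosine calls in each body and upstream region, were deposited, per the file headers. Their own comparison, per the file headers, gives a mean signal over libraries, a log2 fold change with its error and an adjusted p-value. Per the submitters' processing notes, the tools were Trimmomatic, Bismark, STAR, Subread with featureCounts, and DESeq2. Not given in the sources used here are their versions, the build, the upstream width and the handling of strand. Even numbers made up 74.4% to 86.6% of counts from 1 to 30, as counting both mates of a pair would give. The methylation table has 8 further columns per sample, which were not used.

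The main RNA test was edgeR 4.0.16 under R 4.3.3 (TMM scaling, filterByExpr, quasi-likelihood test, Benjamini-Hochberg adjustment over 22850 genes, threshold 0.05). Standard errors are absolute log2 fold changes over the square root of F. The difference of 1 library from the surface mean is in log2 CPM with a prior count of 2. The floor for a group at 0 was 6 counts, which is 3 read pairs counted by both mates, and floors and intervals cover counting error only. Regions with at least 20 calls per library were compared by two-sided Fisher's exact tests (scipy 1.17.1, Python 3.11.15), adjusted over 23680 upstream regions and 25016 gene bodies. Because neighbouring calls can share a read, the Clopper-Pearson intervals are too narrow and these p-values too small. If each cave call was counted 2 times, this holds all the more. EdgeR's test and Fisher's test were run on simulated data, with no outcome given here, and DESeq2 was not. The simulated counts held no library set apart as cave replicate 2 is. Alternatives were DESeq2 1.42.0, its size factors, no filter, each library left out, a replicate block, other call minima and halved cave calls. Groups came from the labels.

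The genes and lists were chosen with earlier results of these data known. Named by rule were genes called by edgeR, the 3 of highest average CPM per class with their copies, the 6 largest differences between the cave libraries each way (average log2 CPM of 1 or more), genes with a called region, and type IV chains. With cave replicate 2 higher, those 6 include lama1, col4a2, lamb2 and col4a1, at log2 values between -0.13 and -0.01. Nearly equal cave libraries were thus part of that choice, and lamb2 was named by it alone. Others named are members shown to complete a trimer, copy pair or class, chosen after their values were seen. Of each partner list the 2 genes of highest CPM were named.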

Additional observations from a re-analysis of the deposited data

How the results depend on the processing

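EdgeR called 0 genes higher and 0 lower with all 4 libraries, with the other size factors, with no filter and with a replicate block (0 and 0), while DESeq2 called 4 and 2. Leaving out 1 replicate gave 0 to 12 higher and 0 to 41 lower, the extremes coming from fits without a cave library. The labels do not say whether libraries of the same number share a batch. The correlation of same-numbered deviations, -0.072, cannot decide it, since with 2 libraries a group it mirrors the crossed value of 0.072. The median over the surface mean moved to 0.27 in cave replicate 1 with DESeq2's size factors and to -1.77 in cave replicate 2 with total counts. Without a surface replicate it was 0.35 to 0.39 and -1.74 to -1.62. Against 1 surface library, 2 to 4 genes were at least 2-fold lower in cave replicate 1. Counts of genes 2-fold apart under other scalings were chosen after seeing the data, as was leaving out the col4a3bp genes, and stayed within 1.5 times. Asking for 20 points left 2 upstream regions higher and 2 lower, while other call minima and halved cave calls kept 5 and 6.

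Leaving out 1 library was followed for 53 named genes, without COL14A1 and col8a1a. Of the 53, 11 were named to complete a trimer, copy pair or class. For 26 of the 53 the direction depended on the library left out, since their cave libraries lie on opposite sides of, or close to, the surface pair. The log2 fold change ran from -4.26 to 0.16 for COL21A1, -0.51 to 0.76 for LAMA2, -3.50 to 1.71 for col11a2, -2.44 to 0.12 for col12a1b, -1.96 to 0.06 for col17a1b and -0.36 to 0.43 for col4a3bpb. It ran from -2.05 to 0.24 for col4a5, -1.84 to 0.44 for col4a6, -1.69 to 0.55 for col6a2, -2.85 to 0.56 for col6a4a, -1.54 to 1.03 for col9a1a and -0.32 to 0.13 for col9a1b. It ran from -2.81 to 0.08 for COL15A1, -2.15 to 0.14 for col11a1b, -1.74 to 0.33 for col2a1a, -0.83 to 1.66 for col4a3bpa, -2.41 to 0.16 for col5a1, -1.94 to 0.65 for col5a2b, -1.66 to 0.54 for col6a1 and -3.60 to 0.13 for col7a1. For col9a2 it ran from -1.02 to 0.93, for col9a3 -0.57 to 0.67, for lama4 -0.06 to 0.24, for lama5 -1.0 to 0.48, for lamc1 -0.68 to 0.30 and for lamc3 -0.57 to 0.36. With a replicate block the value turned to -0.84 for col11a2, -0.21 for col9a1a, -0.01 for col9a2 and -0.06 for lamc3, and with DESeq2 or its size factors to -0.01 for lamc3. The cause was not tested. Genes of few counts, such as col10a1a in the surface libraries and col28a1b in the cave libraries, rest on the least depth.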
